A study of Rattus norvegicus with 9 samples.

Results

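Contrast-induced acute kidney injury was compared here between rats that had and had not been given icariin beforehand, in the kidneys of 6 rats, with 3 untreated rats set beside them. Icariin is a prenylated flavonol glycoside of Epimedium plants. Rats of the injury group (CIAKI) were given the loop diuretic furosemide by stomach tube at 200 mg/kg, were dehydrated for 6 h, and were injected through a tail vein with 15 mL/kg of iopromide (370 mg I/mL), an iodinated agent for X-ray imaging. Rats of the icariin group took icariin by stomach tube at 100 mg/kg once a day for 3 days and then went through the same furosemide, dehydration and iopromide steps. Control rats were not treated. Each group held 3 rats. The labels give a body weight range but no strain, sex or age, no vehicle for the rats without icariin, and no time between contrast injection and collection. No group had icariin without contrast, so an action of icariin that does not depend on the injury cannot be told apart from one that does.

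The comparison took in 16731 of the 36267 features of the gene table, those with at least 1 CPM (counts scaled to a fixed library total) in at least 3 of the 9 libraries. They comprised 13441 Ensembl genes and 3290 features assembled from the reads. A gene was called at an adjusted p below 0.05 (limma, intensity trend, values as log2(CPM + 1), two-sided, Benjamini-Hochberg over all 16731 features), and all log2 differences below are on that scale with n = 3 rats a group. By depth of library, 1 CPM stood for 64.4 (CIAKI rat 3) to 90.4 counted reads (icariin rat 3).

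The proximal tubule, which makes up most of the renal cortex, takes back filtered glucose, amino acids, phosphate and peptides with sodium-coupled carriers and brush border enzymes, and runs on mitochondrial respiration. Iodinated contrast media are filtered, concentrated in the tubule and known to injure its cells, which then lose carriers and make injury proteins such as KIM-1 and NGAL. Icariin is known from work outside this study as an inhibitor of phosphodiesterase 5, which breaks down cyclic GMP, and as a compound with oestrogen-like activity.

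Several libraries stood apart in measures that the groups do not share. Mitochondrially encoded genes took 1.65% of the reads of icariin rat 2 and 3.86% to 5.71% of those of the other 8 libraries. In icariin rat 1 the beta-globin gene Hbb stood at 67.5 CPM, against 416 and 397 CPM in icariin rats 2 and 3 and 830.3, 663 and 671 CPM in CIAKI. Summed erythroid markers were 412 CPM in icariin rat 1, beside 1585, 413 and 398 CPM in control rats 1, 2 and 3. CIAKI rat 2 had the highest level in the CIAKI group of several inflammatory genes, among them Cxcl10 at 104 CPM against 17.3 and 30.7 CPM. The kidney origin of the libraries was plain from the markers: 27 of 27 proximal tubule carriers, 15 of 16 thick ascending limb genes and 13 of 13 podocyte genes passed the filter.

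Icariin and CIAKI kidneys differed in 6592 features (39.4%), of which 3219 were higher (19.2%) and 3373 lower (20.2%) with icariin. Without icariin rat 2 the counts were 2284 higher and 2854 lower, without icariin rat 1 they were 2550 and 2792, and without CIAKI rat 2 they were 2696 and 3184. At 2-fold or more, 902 features were called higher and 508 lower, while at 8-fold or more 15 were called higher and 20 lower. The median over all tested features was 0.02. In 8483 features (50.7%) the values of the 3 icariin rats did not overlap with those of the 3 CIAKI rats. Calls were more frequent among abundant genes, at 61.7% of features with a mean over 200 CPM and 24.7% of those under 2 CPM, which bears on the counts of the lists below. Against untreated rats, icariin kidneys differed in 105 features (0.628%), 67 of them higher (0.4%) and 38 lower (0.227%). That count was 31 without control rat 2, control rat 3 or icariin rat 2, 38 without control rat 1, 61 and 41 without icariin rats 1 and 3, and 524 with DESeq2 on the recovered reads. That comparison uses the same icariin libraries as the one with CIAKI, so each gives its own values below and the counts are not set against each other.

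**Figure D1:**
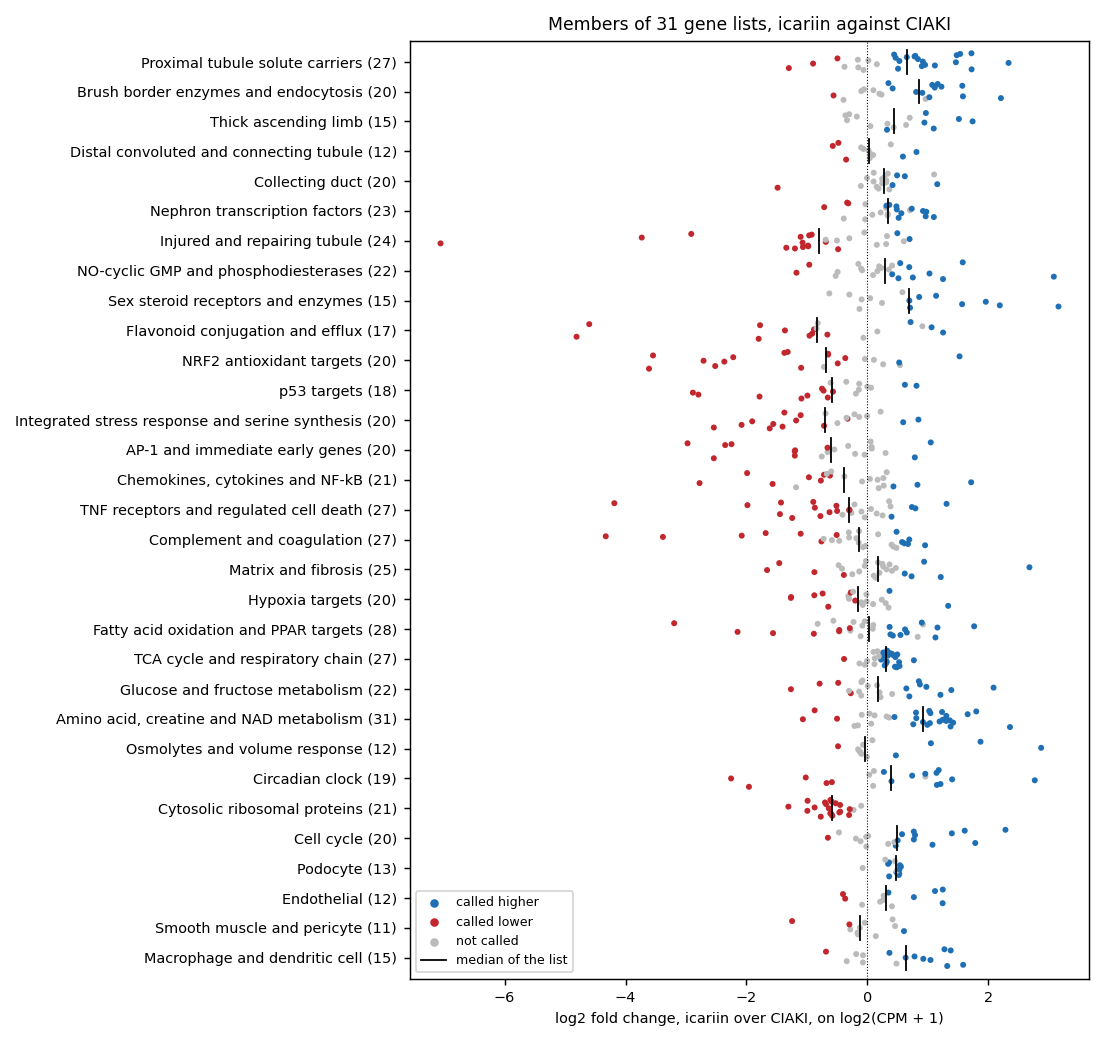
Log2 difference of icariin over CIAKI (x axis, on log2(CPM + 1)) for each tested member of 31 gene lists (y axis, with the number tested in brackets), coloured by whether the member was called higher, called lower or not called; black bars are list medians. Proximal tubule, amino acid and TCA cycle lists lie mostly to the right of 0, and injury, NRF2 and ribosomal protein lists mostly to the left.

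Most carriers of the proximal tubule were higher with icariin. Of 27 tested carriers, 18 were higher with icariin and 3 lower, with a median of 0.65 against 0.02 over all features. Slc34a3, a sodium-phosphate cotransporter of the brush border, measured 32.9, 49.4 and 38.5 CPM in the CIAKI rats and 198, 217 and 199 CPM in the icariin rats. Its difference was 2.34 ± 0.16 (SE), adjusted p = 3.3e-05. The icariin values lay beside the control values of 194, 169 and 240.3 CPM and did not overlap with CIAKI. Slc9a3, the sodium-hydrogen exchanger that drives bicarbonate recovery, stood at 79.4, 103 and 102 CPM in CIAKI and at 310.1, 271 and 246 CPM with icariin (1.53 ± 0.12 (SE), adjusted p = 6.3e-05). For Slc13a2, which takes up citrate and other dicarboxylates, the values were 41.96, 52.6 and 42.9 CPM and 162, 156 and 141 CPM (1.73 ± 0.10 (SE), adjusted p = 1.4e-05). Slc6a20, a carrier of proline, was the fourth by p, at 37.98, 40.9 and 42.4 CPM against 70.3, 66.9 and 73.5 CPM (0.78 ± 0.07 (SE), adjusted p = 9.5e-05). All 3 had higher values in every icariin rat than in any CIAKI rat.

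The carriers of other cargo given next were chosen after their values were seen, so their direction is a description. The amino acid exchanger Slc7a8 was higher by 1.48 ± 0.17 (SE), adjusted p = 0.00032, and Slc3a1, the heavy subunit of the cystine carrier, by 0.92 ± 0.15 (SE), adjusted p = 0.0017. The organic anion carriers Slc22a6 and Slco4c1 were higher by 1.12 and 1.72, and the organic cation carrier Slc22a2 by 0.90. Slc17a3, which also carries organic anions, was lower and is described with the genes outside both groups. The glucose-6-phosphate transporter Slc37a4, which serves gluconeogenesis, rose from 84.3, 185 and 131 CPM in CIAKI to 331, 379 and 347 CPM. Sodium-glucose cotransporter Slc5a2 stood at 174, 171 and 163 CPM against 295, 319.99 and 296 CPM.

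The 3 of the 27 listed carriers that were called lower move glucose or monocarboxylates, and Slc17a3 is not among the 27. Slc2a2, the basolateral glucose transporter GLUT2, stood at 339, 253 and 220.2 CPM in CIAKI and 142, 162 and 126 CPM with icariin (-0.90 ± 0.15 (SE), adjusted p = 0.0021). Slc16a1, which carries lactate and pyruvate, was lower, at -1.30 ± 0.32 (SE), adjusted p = 0.011, with 98.6, 162 and 88.1 CPM in CIAKI and 26.8, 61.1 and 55.5 CPM with icariin. Slc5a8, a sodium-coupled monocarboxylate carrier, was lower, at -0.49 ± 0.10 (SE), adjusted p = 0.005.

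Brush border enzymes and endocytic proteins had the same tendency, with 12 of 20 tested members higher, 1 lower and a median of 0.86. Alkaline phosphatase Alpl, an ectoenzyme of the brush border, measured 87.5, 117 and 122 CPM in CIAKI, 565, 477 and 471 CPM with icariin and 532, 478 and 401 CPM in control rats (2.21 ± 0.15 (SE), adjusted p = 3.2e-05). The metalloprotease subunit Mep1a stood at 244, 231 and 241 CPM against 500.2, 639 and 548 CPM (1.23 ± 0.10 (SE), adjusted p = 7.8e-05), with no overlap. Lrpap1, a chaperone of the megalin receptor, was higher by 1.12 ± 0.09 (SE), adjusted p = 8.2e-05, and the dipeptidase Dpep1 by 0.91 ± 0.12 (SE), adjusted p = 0.00062. The peptidases Anpep and Mme, named after their values were seen, were higher by 1.58 and 1.07, and the scaffold Pdzk1 by 1.16. In Anpep the icariin rats spread from 569 to 1182 CPM, with rat 2 lowest, and still lay above the 275 to 359 CPM of CIAKI. Clcn5, a chloride-proton exchanger of endosomes, was the member called lower (-0.56 ± 0.07 (SE), adjusted p = 0.00065).

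Further down the nephron fewer members were called. In the thick ascending limb list 6 of 15 were higher and 0 lower, in the distal convoluted and connecting tubule list 2 of 12 were higher and 3 lower, and in the collecting duct list 4 of 20 were higher and 1 lower. Over all features 19.2% were higher and 20.2% lower. Whether segments differ from one another was not tested. Egf, made by the thick ascending limb and distal tubule, measured 227, 194 and 173 CPM in CIAKI and 690.1, 718 and 581 CPM with icariin (1.74 ± 0.13 (SE), adjusted p = 6.1e-05), and control rats had 727, 794 and 616 CPM. Uromodulin (Umod), the most abundant urinary protein, stood at 1330.01, 2091 and 1870.5 CPM against 3520.1, 3460.4 and 3202 CPM (0.97 ± 0.21 (SE), adjusted p = 0.0068). The potassium channel gene Kcnt1 and the tight junction gene Cldn19 were higher by 1.51 and 0.94. In the distal list the sodium-calcium exchanger Slc8a1 and the potassium channel Kcnj10 were higher by 0.81 and 0.59, while Wnk4, a kinase that regulates salt transport, and the calcium pump Atp2b1 were lower, at -0.48 and -0.35. In the collecting duct, sodium channel subunits Scnn1b and Scnn1g were higher by 0.62 and 0.49, and the water channel Aqp4 was lower at 92.7, 67.1 and 37.5 CPM against 133, 208 and 191 CPM (-1.48 ± 0.31 (SE), adjusted p = 0.0052). As these are whole kidney samples, fewer cells of a type and less RNA per cell cannot be told apart.

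**Figure D2:**
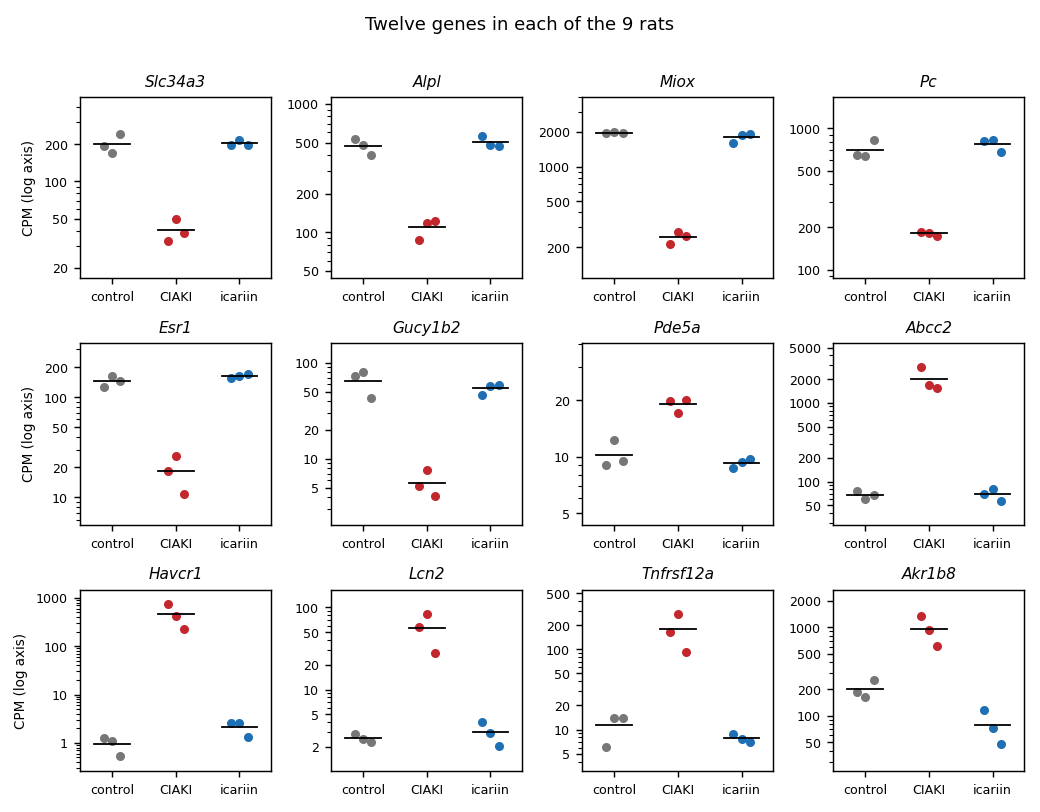
Level in CPM (y axis, log scale) of 12 genes in each of the 9 rats, by group (x axis); points are rats and black bars group means. In all 12 panels the icariin points lie apart from the CIAKI points; in Akr1b8 and Miox they also lie below, and in Havcr1 above, all 3 control points.

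Transcription factors that set nephron identity were mixed, with 11 of 23 higher, 3 lower and 9 not called. The mineralocorticoid receptor Nr3c2 was higher by 0.73 ± 0.11 (SE), adjusted p = 0.0011, and Esrrg, an oestrogen-related receptor that drives mitochondrial genes, by 0.97 ± 0.14 (SE), adjusted p = 0.0011. Lhx1 was higher by 0.92 ± 0.17 (SE), adjusted p = 0.0029. Pax8, a developmental nephron factor, was lower at 129, 125 and 102 CPM against 212, 218 and 158 CPM (-0.71 ± 0.13 (SE), adjusted p = 0.0029). Tfcp2l1, a collecting duct factor, was lower, at -0.32. Hnf4a, the main proximal tubule factor, was not called, with 1009, 657 and 1209.8 CPM in CIAKI and 1116, 1237 and 1180.5 CPM with icariin (0.34 ± 0.19 (SE), adjusted p = 0.18).

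Kidney metabolism showed some of the steadiest differences. In the amino acid, creatine and NAD list 20 of 31 tested enzymes were higher, 3 lower, and the median was 0.92. Fumarylacetoacetate hydrolase (Fah), the last enzyme of tyrosine breakdown, measured 99.6, 106 and 98.2 CPM in CIAKI and 237, 232 and 229.9 CPM with icariin (1.20 ± 0.06 (SE), adjusted p = 1.1e-05). Dmgdh, a dehydrogenase of choline breakdown, stood at 146, 129.9 and 143 CPM against 256, 274 and 265 CPM (0.92 ± 0.07 (SE), adjusted p = 7.1e-05), and Prodh2, which oxidises hydroxyproline, was higher by 1.80 ± 0.16 (SE), adjusted p = 0.00012. Agmat, which hydrolyses agmatine, was higher by 1.38 ± 0.12 (SE), adjusted p = 0.00012. These 4 enzymes had no overlap between the groups.

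Enzymes of the tryptophan to NAD route were examined after their values were seen. Acmsd, the branch point enzyme that diverts carbon away from NAD, stood at 16.7, 44.1 and 39.2 CPM in CIAKI and 175, 153 and 159.7 CPM with icariin (2.36 ± 0.29 (SE), adjusted p = 0.00044). Kynu, Haao and Qprt, which lead on towards NAD, were higher by 1.31, 0.81 and 1.02. Naprt, which makes NAD precursor from nicotinic acid, was higher by 1.66 ± 0.23 (SE), adjusted p = 0.00073. Kmo, Nmnat1, Nampt and Nadsyn1 were not called, at 0.32, 0.03, -0.09 and 0.12. Members called lower included Glud1, the mitochondrial glutamate dehydrogenase, at -0.50 ± 0.13 (SE), adjusted p = 0.014. Sat1, which acetylates polyamines for export, was lower, at -0.87 ± 0.17 (SE), adjusted p = 0.0042.

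Of the glucose and fructose list 8 of 22 genes were higher and 4 lower (Ldha, Pgam1, Pfkp and Gapdh, all of glycolysis), and without CIAKI rat 1, CIAKI rat 2, icariin rat 2 or icariin rat 3 the number lower was 2. Pyruvate carboxylase (Pc), the entry enzyme of gluconeogenesis, measured 184, 183 and 174 CPM in CIAKI and 807, 827 and 683 CPM with icariin, beside 645, 631 and 823 CPM in control rats (2.09 ± 0.12 (SE), adjusted p = 1.3e-05). Fructose-1,6-bisphosphatase (Fbp1) was higher by 1.21 ± 0.16 (SE), adjusted p = 0.00073, and ketohexokinase (Khk), the first step of fructose use, by 1.39 ± 0.17 (SE), adjusted p = 0.00038. Lactate dehydrogenase A (Ldha) was lower, with 481, 505 and 538 CPM in CIAKI against 212, 227 and 195 CPM (-1.26 ± 0.08 (SE), adjusted p = 2e-05), and phosphoglycerate mutase (Pgam1) was lower, at -0.48 ± 0.07 (SE), adjusted p = 0.00097. Icariin rats still lay above the control values of 149, 160.2 and 148 CPM in Ldha (0.46 ± 0.08 (SE), adjusted p = 0.04), a call that was lost without any single control or icariin library (adjusted p up to 0.19). Myo-inositol oxygenase (Miox), a proximal tubule enzyme, had one of the smallest p-values of the comparison: 215, 272 and 250.1 CPM in CIAKI, 1607, 1891 and 1923 CPM with icariin and 1937, 2002 and 1965 CPM in control rats (2.88 ± 0.11 (SE), adjusted p = 5.9e-06).

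Nuclear genes of the TCA cycle and respiratory chain moved little but evenly, with 18 of 27 higher, 1 lower and a median of 0.31. Succinate dehydrogenase subunits Sdha and Sdhb were higher by 0.43 ± 0.07 (SE), adjusted p = 0.0017 and 0.50 ± 0.08 (SE), adjusted p = 0.0018. Cyc1 of complex III was higher by 0.31 ± 0.06 (SE), adjusted p = 0.0027, and the ATP synthase subunit Atp5f1b by 0.53. Idh3a, a subunit of the NAD-linked isocitrate dehydrogenase, was the member called lower (-0.39 ± 0.06 (SE), adjusted p = 0.001). The low mitochondrial share of icariin rat 2 concerns mitochondrially encoded genes, and that rat did not stand below the others in these nuclear genes: Sdha measured 736 CPM in it and 732 and 751 CPM in icariin rats 1 and 3.

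Markers of injured and repairing tubules formed the counterpart, with 14 of 24 tested members lower with icariin and 2 higher (median -0.80). Havcr1 encodes KIM-1, a receptor that injured proximal cells place on their surface. It measured 742, 419 and 229 CPM in the CIAKI rats, 2.54, 2.63 and 1.35 CPM with icariin and 1.25, 1.08 and 0.529 CPM in control rats. The difference of -7.06 ± 0.38 (SE), adjusted p = 1.2e-05 was the largest on the log2 scale among the named genes. Lcn2, which encodes the urinary injury marker NGAL, stood at 57.7, 82.6 and 28.2 CPM in CIAKI and 4.08, 2.94 and 2.05 CPM with icariin (-3.73 ± 0.34 (SE), adjusted p = 0.00013). Among CIAKI rats the order differed between these genes, with rat 1 highest in Havcr1 and rat 2 in Lcn2. Clusterin (Clu), a secreted chaperone, was lower, at -0.98 ± 0.14 (SE), adjusted p = 0.00095, and the integrin subunit Itgav at -0.69 ± 0.10 (SE), adjusted p = 0.00089.

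Genes of dedifferentiated or regrowing tubule cells, named after their values were seen, were also lower. Sox9, a factor of repairing tubules, stood at 97.5, 129 and 74.5 CPM against 43.6, 56.1 and 54.8 CPM (-0.92 ± 0.20 (SE), adjusted p = 0.0066). The osteopontin gene Spp1 measured 2549.8, 5430.1 and 1508 CPM in CIAKI and 455, 482 and 221 CPM with icariin (-2.91 ± 0.51 (SE), adjusted p = 0.0024). Cd24, Cd44 and the growth factor Areg were lower, at -1.34, -1.07 and -1.20. Krt7, a keratin of collecting duct and regenerating epithelium, was higher at 126, 113 and 90.1 CPM against 50.6, 73.2 and 79.6 CPM (0.70 ± 0.17 (SE), adjusted p = 0.011), beside 105 CPM on average in control rats. Vcam1, an adhesion protein of injured tubule cells, was called higher (0.50 ± 0.15 (SE), adjusted p = 0.03), a call lost without CIAKI rat 1, icariin rat 2 or icariin rat 3. The keratins Krt8, Krt18 and Krt19 and vimentin were not called, at -0.30, -0.50, -0.69 and -0.05.

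Beyond these lists, the rule for the largest differences named 12 genes in each direction. On the lower side stood Gpnmb, a glycoprotein of lysosomes, at 175, 80.05 and 94.8 CPM in CIAKI and 3.29, 4.01 and 3.04 CPM with icariin (-4.65 ± 0.27 (SE), adjusted p = 1.6e-05). Igfbp1, which binds insulin-like growth factors, measured 518, 1112 and 312 CPM against 49.5, 55.9 and 60.1 CPM (-3.34 ± 0.37 (SE), adjusted p = 0.00028), and the adhesion receptor PVR 39.1, 124 and 22.6 CPM against 3.16, 2.92 and 1.66 CPM (-3.80 ± 0.50 (SE), adjusted p = 0.00062). CIAKI rat 2 was highest in both Igfbp1 and PVR.

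On the higher side, Prima1, which anchors acetylcholinesterase in membranes, stood at 3.94, 4.76 and 18.9 CPM in CIAKI and 201, 355 and 96.7 CPM with icariin (4.53 ± 0.59 (SE), adjusted p = 0.00059). Regucalcin (Rgn), a calcium-binding enzyme, measured 29.8, 48.1 and 44.3 CPM against 211, 397 and 325 CPM (2.88 ± 0.28 (SE), adjusted p = 0.00015). Stra6, the receptor that takes retinol into cells, was at 1.42, 8.41 and 3.14 CPM against 32.4, 33.9 and 30.2 CPM (2.86 ± 0.40 (SE), adjusted p = 0.00083). Cacng5, Spata22, Dmrtc1c1, Sspo, Aldh1b1 and Tmem86a completed the set, with log2 differences of 3.36, 3.25, 3.20, 3.001, 2.97 and 2.86.

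Because icariin is known for oestrogen-like activity, the genes of sex steroid signalling were looked at as a list. Of 15 tested members 8 were higher and 0 lower (1 without CIAKI rat 2), with a median of 0.70. Esr1, the oestrogen receptor alpha gene, measured 18.3, 26.2 and 10.7 CPM in CIAKI, 156, 162 and 172 CPM with icariin and 127, 162 and 146 CPM in control rats (3.16 ± 0.25 (SE), adjusted p = 7.1e-05). All icariin rats lay above all CIAKI rats and inside or just above the control range. Greb1, a gene that the oestrogen receptor is known to induce, stood at 4.67, 10.4 and 19.1 CPM against 49.2, 46.3 and 50.97 CPM (2.19 ± 0.38 (SE), adjusted p = 0.0022), with 49.9, 37.4 and 60.2 CPM in control rats. The prolactin receptor Prlr was higher by 1.14 ± 0.16 (SE), adjusted p = 0.00084. Hsd17b2, which inactivates oestradiol, measured 0.301, 0.728 and 1.07 CPM in CIAKI and 7.52, 5.21 and 4.18 CPM with icariin (1.96 ± 0.26 (SE), adjusted p = 0.00069). Against control none of the 15 members was called, so no member of the list exceeded its untreated level past the test. The second oestrogen receptor, Esr2, and the membrane receptor Gper1 did not pass the filter.

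Phosphodiesterase 5 and the rest of the nitric oxide and cyclic GMP pathway made a second list tied to icariin. In this pathway nitric oxide activates soluble guanylate cyclase, a dimer of an alpha and a beta subunit, and phosphodiesterases end the cyclic GMP signal. Of 22 tested members 9 were higher, 2 lower and 11 not called, where 19.2% of all features were higher and 20.2% lower. The cyclase subunit Gucy1b2 measured 5.15, 7.58 and 4.12 CPM in CIAKI, 46.3, 57.4 and 58.7 CPM with icariin and 71.9, 79.6 and 43.05 CPM in control rats (3.09 ± 0.25 (SE), adjusted p = 7.6e-05). Gucy1a1 stood at 9.97, 11.5 and 12.8 CPM against 26.7, 34.7 and 24.8 CPM (1.25 ± 0.14 (SE), adjusted p = 0.00032), and Gucy1b1 was higher by 0.75 ± 0.15 (SE), adjusted p = 0.0045. Natriuretic peptide clearance receptor Npr3 was higher by 1.03 ± 0.18 (SE), adjusted p = 0.0022, and the kinase Prkg2, a target of cyclic GMP, by 1.58.

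Phosphodiesterases went both ways, with 2 lower and 2 higher among 13 tested, where 20.2% and 19.2% of all features were. Pde5a itself stood at 19.9, 17.2 and 20.1 CPM in CIAKI, 8.69, 9.40 and 9.76 CPM with icariin and 8.97, 12.3 and 9.50 CPM in control rats (-0.96 ± 0.13 (SE), adjusted p = 0.00077). Pde10a was lower at 4.11, 2.76 and 2.89 CPM against 8.86, 11.2 and 6.10 CPM (-1.17 ± 0.21 (SE), adjusted p = 0.0027). Pde9a, which also breaks down cyclic GMP, was higher at 18.2, 15.3 and 16.4 CPM against 10.9, 11.1 and 11.2 CPM (0.54 ± 0.15 (SE), adjusted p = 0.019), a call lost without icariin rat 1. Pde4a, which acts on cyclic AMP, was higher by 0.69, a call lost without CIAKI rat 1 or 3 or icariin rat 1 or 2. The synthase Nos3 was not called, at 15.96, 25.8 and 17.3 CPM in CIAKI and 15.8, 12.5 and 11.4 CPM with icariin (-0.52 ± 0.20 (SE), adjusted p = 0.06). Enzyme activity and cyclic GMP were not among the measurements.

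Flavonoids such as icariin leave the body as glucuronides and sulfates through multidrug export pumps, and the genes of these steps were counted as a further list. Of 17 tested members 9 were lower with icariin, 3 higher and the median was -0.84. Abcc2, which encodes the apical export pump MRP2, measured 2853, 1675 and 1526 CPM in CIAKI and 69.8, 79.4 and 57.05 CPM with icariin (-4.81 ± 0.22 (SE), adjusted p = 9.9e-06). Control rats had 76.05, 60.7 and 68.4 CPM, and the icariin values spanned the same range. Abcb1a, the P-glycoprotein gene, stood at 123, 142 and 163 CPM against 35.04, 44.3 and 41.2 CPM (-1.80 ± 0.15 (SE), adjusted p = 9.3e-05). On the authors' length-adjusted scale Abcc2 averaged 269.7 FPKM in CIAKI and 9.44 FPKM with icariin, and Abcb1a 25.9 and 6.92 FPKM. Per unit length Abcc2 was thus the more abundant pump of the pair in both groups.

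Conjugating enzymes went both ways. Ugt2a3, a glucuronosyltransferase, stood at 32.9, 141 and 29.2 CPM in CIAKI and at 0.736, 1.60 and 1.26 CPM with icariin (-4.60 ± 0.54 (SE), adjusted p = 0.00037). Its control rats had 7.34, 17.3 and 11.9 CPM, above every icariin rat, though the difference from control missed the threshold (-2.53 ± 0.54 (SE), adjusted p = 0.096). Ugt1a7c measured 2213, 1956 and 2364 CPM against 573, 681 and 652 CPM (-1.78 ± 0.14 (SE), adjusted p = 7.1e-05). Ugt1a genes share exons, so the counts of Ugt1a7c may be split with its relatives. Higher were the pump Abcc6 at 30.2, 36.4 and 30.4 CPM against 12.6, 12.6 and 13.7 CPM (1.25 ± 0.10 (SE), adjusted p = 7.7e-05) and 2 enzymes whose calls rested on single libraries. Ugt8 (0.72 ± 0.21 (SE), adjusted p = 0.022) lost its call without CIAKI rat 1, CIAKI rat 3, icariin rat 1 or icariin rat 2, and Sult1c2 (1.06 ± 0.32 (SE), adjusted p = 0.027) without CIAKI rat 2 or icariin rat 3.

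Targets of the antioxidant factor NRF2 were lower in 13 of 20 tested members and higher in 2 (median -0.68). The reductase Akr1b8 stood at 1332, 928 and 613 CPM in CIAKI and 115, 72.6 and 47.7 CPM with icariin (-3.61 ± 0.35 (SE), adjusted p = 0.00015), and the cystine importer Slc7a11 at 21.2, 20.4 and 5.75 CPM against 0.23, 0.297 and 0.265 CPM (-3.55 ± 0.39 (SE), adjusted p = 0.00029). Thioredoxin reductase Txnrd1 was lower, at -1.32 ± 0.13 (SE), adjusted p = 0.00019. Among members named after their values were seen, Hmox1 and Nqo1 were lower, at -2.71 and -2.22, and the iron store Fth1 at -1.10. Osgin1, described as a growth inhibitor induced by oxidative stress, went against the list at 369, 355 and 285 CPM with icariin and 113, 103 and 133 CPM in CIAKI (1.53 ± 0.16 (SE), adjusted p = 0.00019). The other member called higher, Gsta4 (0.53 ± 0.18 (SE), adjusted p = 0.045), lost its call without icariin rat 1, 2 or 3, CIAKI rat 2 or 3, or control rat 2 or 3. The sensor Keap1 and the glutathione enzymes Gclc and Gclm were not called, at 0.11, 0.54 and 0.26.

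The antioxidant response element, the site that NRF2 binds, has the core TGACNNNGC, which was searched on both strands of the 300 bases from 250 before to 50 after each RefSeq gene start (build GRCr8). It was found in 4 of 15 matched promoters of the NRF2 list (Gclm, Gstp1, Me1 and Nfe2l2, 26.7%) and in 12.2% of all 27457 promoters. One of the 4 is the glutathione transferase gene Gstp1, with 1298, 862 and 1111 CPM in CIAKI and 139, 218 and 295 CPM with icariin (-2.37 ± 0.30 (SE), adjusted p = 0.00051); Gclm and Me1 were not called and Nfe2l2 was lower, at -0.36. The Gstp1 promoter is printed, 5′ to 3′ on the minus strand of chr1:210769656-210769955, with the match in capitals, as the example whose gene differed most. In the flavonoid conjugation and efflux list the same core was found in 1 of 16 matched promoters (Abcc2, 6.25%). A match is a description of letters and not of binding.
Gstp1 promoter: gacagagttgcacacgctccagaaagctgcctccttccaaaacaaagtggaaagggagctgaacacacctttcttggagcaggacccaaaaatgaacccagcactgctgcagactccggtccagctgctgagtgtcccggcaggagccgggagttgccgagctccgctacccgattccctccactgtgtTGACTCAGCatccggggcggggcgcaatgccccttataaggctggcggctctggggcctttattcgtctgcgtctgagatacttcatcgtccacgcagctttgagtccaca

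Genes of growth arrest and of amino acid stress followed, with more members lower than higher. Of 18 p53 targets 9 were lower and 2 higher, and of 20 genes of the integrated stress response and serine synthesis 11 were lower and 2 higher. Ccng1, a cyclin induced by p53, measured 311, 339.6 and 303 CPM in CIAKI and 162, 151 and 165 CPM with icariin (-0.99 ± 0.09 (SE), adjusted p = 9.9e-05). The stress hormone gene Gdf15 stood at 113, 67.4 and 176 CPM against 12.8, 19.4 and 11.1 CPM (-2.89 ± 0.34 (SE), adjusted p = 0.00036), and the cell cycle inhibitor Cdkn1a, named after its values were seen, at 30.9, 58.9 and 16.1 CPM against 2.76, 2.73 and 5.98 CPM (-2.79 ± 0.41 (SE), adjusted p = 0.001). Bax and Perp, which promote cell death, were lower, at -0.65 and -0.72. Against the list, Sesn1 and the ribonucleotide reductase subunit Rrm2b were higher by 0.62 and 0.81. In the integrated stress response the lead factor Atf4 was lower, at -1.40 ± 0.15 (SE), adjusted p = 0.00023. Asparagine synthetase (Asns), one of its targets, stood at 28.8, 24.6 and 22.6 CPM against 7.36, 7.52 and 7.79 CPM (-1.62 ± 0.13 (SE), adjusted p = 7.1e-05), and Mthfd2 was lower, at -1.90 ± 0.23 (SE), adjusted p = 0.0004. Phgdh, the first enzyme of serine synthesis, was higher at 131, 151 and 146 CPM against 67.7, 77.3 and 93.4 CPM (0.84 ± 0.13 (SE), adjusted p = 0.0011).

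Immediate early and AP-1 genes were lower in 8 of 20 tested members and higher in 2, or 1 without CIAKI rat 1, when the phosphatase Dusp1 lost its call. Myc stood at 68.002, 111 and 50.5 CPM in CIAKI and 6.05, 9.70 and 9.86 CPM with icariin (-2.98 ± 0.27 (SE), adjusted p = 0.00013). Klf6 and Maff were lower, at -2.35 and -2.25, and CIAKI rat 2 was the highest rat in both. Nr4a1, an orphan nuclear receptor, was higher by 1.05 ± 0.25 (SE), adjusted p = 0.009. Fos, Jun, Junb and Egr1, the best known members, were not called, at 0.30, -0.55, 0.07 and -0.05.

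Inflammatory genes were called in both directions. Of 21 tested chemokine, cytokine and NF-kB genes 7 were lower and 3 higher, where 20.2% and 19.2% of all features were. The number lower was 4 when icariin rat 2 or icariin rat 3 was left out. Cxcl10, an interferon-induced chemokine, measured 17.3, 104 and 30.7 CPM in CIAKI and 6.91, 6.04 and 2.38 CPM with icariin (-2.78 ± 0.56 (SE), adjusted p = 0.0047). Socs3, a feedback inhibitor of cytokine receptors, was lower at 2.01, 2.15 and 1.01 CPM against 8.08, 17.2 and 6.18 CPM (-1.99 ± 0.33 (SE), adjusted p = 0.0019). The homeostatic chemokine Cxcl12 was higher at 76.4, 132 and 95.4 CPM against 28.3, 21.3 and 41.7 CPM (1.72 ± 0.24 (SE), adjusted p = 0.00082), and Cx3cl1, a chemokine that holds resident macrophages, by 0.83 ± 0.10 (SE), adjusted p = 0.00035. Il1b, Ccl2 and Tgfb1 were not called, at 0.04, 0.19 and 0.32. Tnf, Il6, Ccl3, Ccl4, Ccl7 and Cxcl2 did not pass the filter.

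Death receptors and executioners were lower in 13 of 27 tested members and higher in 4, where 20.2% and 19.2% of all features were. With any single CIAKI or icariin library left out, 9 to 11 were lower and 3 to 4 higher. Tnfrsf12a, the receptor of the cytokine TWEAK, stood at 162, 276 and 92.2 CPM in CIAKI and 8.93, 7.69 and 7.11 CPM with icariin (-4.19 ± 0.39 (SE), adjusted p = 0.00014). Ripk3, a kinase of necroptosis, was lower at 3.40, 2.96 and 2.19 CPM against 19.9, 13.5 and 10.3 CPM (-1.98 ± 0.22 (SE), adjusted p = 0.0003), and Mlkl, the protein it activates, had a difference of -0.87. Acsl4, which loads membranes with the lipids that ferroptosis oxidises, was lower, at -1.24 ± 0.13 (SE), adjusted p = 0.0002. The survival gene Bcl2l1 was lower as well (-0.78 ± 0.08 (SE), adjusted p = 0.00021). Higher were the decoy receptor Tnfrsf11b, the pore protein Gsdme and the inflammasome sensor Nlrp3, by 1.31, 0.80 and 0.74. The survival gene Bcl2 was also called higher (0.40, adjusted p = 0.028), a call lost in 8 of 21 alternatives.

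The 3 fibrinogen genes gave some of the smallest p-values of the comparison. Fga measured 241, 337 and 166 CPM in CIAKI and 22.5, 22.3 and 20.996 CPM with icariin (-3.38 ± 0.20 (SE), adjusted p = 2e-05), and Fgb 95.1, 67.6 and 55.7 CPM against 3.68, 2.53 and 1.79 CPM (-4.33 ± 0.24 (SE), adjusted p = 1.3e-05). Fgg, at 2.96, 4.95 and 3.57 CPM against 0.0919, 0.241 and 0.0553 CPM, was lower, at -2.08 ± 0.17 (SE), adjusted p = 8.9e-05. The rest of the complement and coagulation list was divided, with 7 of 27 lower in all and 6 higher, where 20.2% and 19.2% of all features were. Complement genes C4a and C2 were higher by 0.67 and 0.96, and the protein C receptor Procr was lower, at -1.68 ± 0.20 (SE), adjusted p = 0.00037.

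Markers of immune cells were counted as a list in their own right, since they are another source of RNA in a whole kidney. Of 15 tested macrophage and dendritic cell genes 9 were higher with icariin and 1 lower, and their summed level was 357 to 545 CPM in CIAKI, 668 to 947 CPM with icariin and 804 to 905 CPM in control rats. Aif1, a macrophage gene, stood at 1.79, 1.29 and 1.37 CPM in CIAKI and 6.71, 6.86 and 5.74 CPM with icariin (1.58 ± 0.16 (SE), adjusted p = 0.00017). Csf1r, the receptor that macrophages need to survive, was higher by 0.93 ± 0.11 (SE), adjusted p = 0.0004, and Adgre1 by 1.32 ± 0.19 (SE), adjusted p = 0.001. The class II antigen gene RT1-Da measured 45.5, 54.8 and 34.6 CPM against 89.03, 142 and 101 CPM (1.28 ± 0.20 (SE), adjusted p = 0.0015). Mrc1, the mannose receptor, was called lower (-0.68 ± 0.24 (SE), adjusted p = 0.049), a call lost in 13 of the 21 alternatives, among them leaving out CIAKI rat 1 or 2 or any control rat. Neutrophil markers S100a8, S100a9, Mpo, Elane and Camp did not pass the filter. Of the 2 neutrophil markers tested, Ncf1 was higher by 1.17 (adjusted p = 0.0018) and Csf3r was not called, at -0.41. Cd4 and Lck, counted in a list of lymphocyte genes, were higher by 1.12 and 0.84 at levels under 21 CPM. The part of these cells in the inflammatory genes above was not tested.

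Other kidney cell types moved too. Podocyte markers were higher in 9 of 13 tested members and lower in 0, with a summed level of 1527 to 1807 CPM in CIAKI and 2162 to 2496 CPM with icariin. Podxl and Col4a3 were higher by 0.54 ± 0.09 (SE), adjusted p = 0.0017 and 0.52 ± 0.09 (SE), adjusted p = 0.0017. In the endothelial list 5 of 12 members were higher and 2 lower. Without icariin rat 3, 8 were higher, and 1 was lower without CIAKI rat 1, CIAKI rat 2, icariin rat 1 or icariin rat 3. Ehd3, a glomerular endothelial gene, stood at 19.3, 19.3 and 19.3 CPM in CIAKI and 48.8, 42.9 and 49.9 CPM with icariin (1.25 ± 0.08 (SE), adjusted p = 2e-05). The adrenal gene Cyp21a1 was about 1 CPM in icariin rats (1.09, 0.977 and 1.14 CPM) and near 0 in CIAKI (0, 0.0297 and 0.0621 CPM).

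Matrix genes gave no common direction, with 5 of 25 higher and 4 lower, where 19.2% and 20.2% of all features were. The number higher was 2 without CIAKI rat 1, icariin rat 1 or icariin rat 2, and 9 without icariin rat 3. The protease Mmp9 was higher at 7.999, 19.3 and 13.3 CPM against 1.30, 1.49 and 0.73 CPM (2.68 ± 0.37 (SE), adjusted p = 0.00072), and of the inhibitors of such proteases Timp1 was lower, at -1.46 ± 0.20 (SE), adjusted p = 0.00069 and Timp3 was higher by 0.94 ± 0.12 (SE), adjusted p = 0.00059. The collagen cross-linking enzyme Lox was lower, at -1.66 ± 0.21 (SE), adjusted p = 0.00052. Among 20 tested hypoxia targets 7 were lower and 2 higher. Aldoa was lower, at -0.65, and Ndrg1, at -1.26, while Ankrd37 was higher by 1.34 and Vegfa by 0.37.

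Ribosomal protein genes were nearly uniform, with 19 of 21 tested members lower with icariin, 0 higher and a median of -0.59. Rplp0 measured 975, 1029 and 926 CPM in CIAKI and 532, 552 and 515 CPM with icariin (-0.87 ± 0.08 (SE), adjusted p = 0.0001). Rpl4 and Rpl8 were lower, at -0.99 and -0.64. These genes have many processed copies, and the sources used here do not say how shared reads were counted. Cell cycle genes went the other way, with 11 of 20 higher and 1 lower. Without icariin rat 2, 6 were higher, and the number lower was 0 without control rat 1, CIAKI rat 1, CIAKI rat 2 or icariin rat 3 and 2 without CIAKI rat 3. Top2a, an enzyme of dividing cells, stood at 1.56, 3.51 and 2.08 CPM against 10.9, 20.2 and 15.4 CPM (2.28 ± 0.26 (SE), adjusted p = 0.00031), and Mki67 at 6.99, 7.33 and 7.81 CPM against 15.8, 26.8 and 21.9 CPM (1.40 ± 0.16 (SE), adjusted p = 0.00036). In control rats Mki67 measured 38.9, 38.6 and 35.3 CPM, and icariin rat 1 was the lowest of its group in both genes. Cyclin D1 (Ccnd1) was higher by 1.79 ± 0.25 (SE), adjusted p = 0.0008.

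Clock genes differed between icariin and CIAKI in 15 of 19 tested members, 10 higher and 5 lower. In the cell clock the activators Arntl, Clock and Npas2 switch on the repressors Per and Cry and the output factors Dbp, Tef and Hlf through E-box sites, and Nfil3 opposes the latter. Arntl measured 20.2, 22.98 and 16.3 CPM in CIAKI, 3.26, 4.05 and 5.95 CPM with icariin and 13.6, 15.9 and 14.3 CPM in control rats. It was lower with icariin than with contrast alone (-1.96 ± 0.19 (SE), adjusted p = 0.00017) and lower than in untreated rats (-1.55 ± 0.19 (SE), adjusted p = 0.012), the latter call being lost without control rat 2, control rat 3 or icariin rat 2 (adjusted p up to 0.070). Npas2 stood at 3.94, 6.11 and 4.12 CPM in CIAKI, 2.22, 2.24 and 1.07 CPM with icariin and 9.03, 11.6 and 12.4 CPM in control rats, in 3 ranges that did not overlap (-2.10 ± 0.23 (SE), adjusted p = 0.0057 against control). Clock was lower than in CIAKI, at -0.68 ± 0.09 (SE), adjusted p = 0.00059. Nfil3 was lower at 3.08, 3.33 and 6.34 CPM against 17.1, 47.7 and 14.9 CPM (-2.25 ± 0.41 (SE), adjusted p = 0.0026).

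The output factors ran opposite to the activators. Dbp stood at 24.9, 17.4 and 25.5 CPM in CIAKI, 217, 165 and 109.8 CPM with icariin and 114, 91.4 and 85.4 CPM in control rats (2.77 ± 0.24 (SE), adjusted p = 9.8e-05). Hlf was higher by 1.40 ± 0.14 (SE), adjusted p = 0.0002 and Tef by 1.18 ± 0.13 (SE), adjusted p = 0.00025. Per3 was higher by 1.14 ± 0.12 (SE), adjusted p = 0.00021, and Per2 measured 49.5, 67.2 and 74.1 CPM in CIAKI, 119, 129.8 and 119 CPM with icariin and 59.5, 52.03 and 63.1 CPM in control rats (0.96 ± 0.14 (SE), adjusted p = 0.00095 against CIAKI). Per2 was also higher than in control rats (1.07 ± 0.14 (SE), adjusted p = 0.014), a call lost without control rat 1 or 2 or icariin rat 2 or 3 (adjusted p up to 0.070). Cry1 lay between, at 15.7, 16.5 and 18.97 CPM with icariin, below the 27.02, 27.6 and 23.7 CPM of CIAKI and above the 6.12, 6.92 and 8.14 CPM of control rats (1.17 ± 0.13 (SE), adjusted p = 0.0057 against control). Against control 6 clock genes were called higher and 3 lower, where 0.4% and 0.227% of all features were. Npas2 and Cry1 kept their call against control in every alternative run, while Per3 and Tef lost theirs in 9 and 12 of 20, and Clock, Per1 and Rora each in 15 of 20. The number higher was 2 without control rat 1, control rat 3 or icariin rat 1, and 1 without control rat 2, icariin rat 2 or icariin rat 3. The number lower was 1 without control rat 2, control rat 3 or icariin rat 2. Per1, Bhlhe40 and Nr1d1 were among those not called against CIAKI. Hours of dosing and of collection are not in the labels, so time of day and treatment cannot be told apart here.

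**Figure D3:**
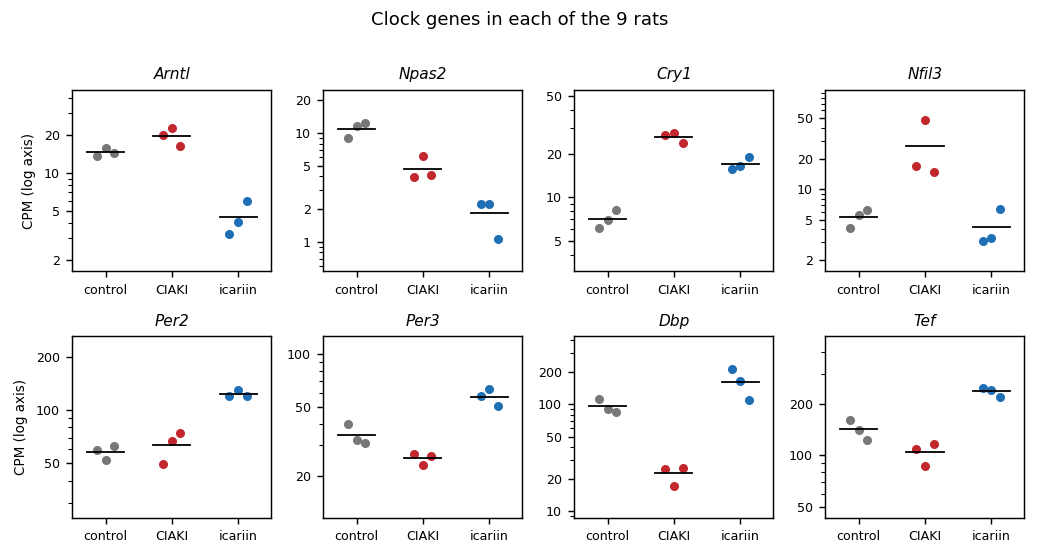
Level in CPM (y axis, log scale) of 8 clock genes in each of the 9 rats, by group (x axis); points are rats and black bars group means. Arntl and Npas2 are lowest and Per2, Per3 and Tef highest in the icariin rats, Cry1 lies between control and CIAKI, and Dbp reaches from inside the control range to above it.

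An E-box of the letters CACGTG, searched on both strands, was found in 4 of 15 matched clock gene promoters (Bhlhe40, Bhlhe41, Ciart and Tef, 26.7%) and in 6.65% of all 27457 RefSeq promoters. Ciart, a repressor of the clock, had 3 matches, and its level was 2.30, 2.21 and 1.01 CPM in CIAKI and 8.20, 5.07 and 3.73 CPM with icariin (1.21 ± 0.28 (SE), adjusted p = 0.009). Bhlhe41 was higher by 1.15, and Bhlhe40 was not called (0.10). A cyclic AMP element, TGACGTCA, was found in 0 of the 15 and in 1.91% of all promoters. The promoters of Ciart and Tef, chosen because both genes were called higher, follow with their E-boxes in capitals, 5′ to 3′, for Ciart on the minus strand of chr2:186112197-186112496 and for Tef on the plus strand of chr7:115206577-115206876.
Ciart promoter: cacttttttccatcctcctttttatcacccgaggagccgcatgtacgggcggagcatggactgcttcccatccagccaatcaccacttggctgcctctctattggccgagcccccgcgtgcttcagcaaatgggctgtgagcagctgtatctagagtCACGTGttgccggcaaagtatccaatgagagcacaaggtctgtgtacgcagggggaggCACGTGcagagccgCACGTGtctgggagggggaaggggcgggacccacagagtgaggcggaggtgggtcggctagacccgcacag
Tef promoter: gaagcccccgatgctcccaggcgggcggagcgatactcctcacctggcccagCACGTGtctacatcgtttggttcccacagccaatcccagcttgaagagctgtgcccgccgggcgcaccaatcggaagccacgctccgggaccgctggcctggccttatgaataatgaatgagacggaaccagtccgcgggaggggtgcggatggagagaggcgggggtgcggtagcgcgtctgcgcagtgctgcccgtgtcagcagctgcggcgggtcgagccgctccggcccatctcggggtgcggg

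Fatty acid genes split within one list. Of 28 tested members 10 were higher with icariin than with contrast alone and 7 lower. Against control rats 9 were higher with icariin and 0 lower, where 0.4% and 0.227% of all features were. In CIAKI 16 members were higher than in control rats and 2 lower, where 20.8% and 20.5% of all features were. The count of 9 was 3 without control rat 2 or 3 or icariin rat 2 or 3, 4 without control rat 1, 6 without icariin rat 1 and 15 without CIAKI rat 1. Genes lower than in CIAKI included Plin2, the coat protein of lipid droplets, at 506, 716 and 256 CPM in CIAKI, 45.8, 45.5 and 54.7 CPM with icariin and 44.8, 42.8 and 48.9 CPM in control rats (-3.20 ± 0.30 (SE), adjusted p = 0.00014). The thioesterases Acot2 and Acot1 were lower, at -1.56 and -0.88. Cpt1a, which admits fatty acids to mitochondria, was lower, at -0.47 ± 0.12 (SE), adjusted p = 0.013. Angptl4, an inhibitor of lipoprotein lipase, was intermediate: 64.9, 165 and 153 CPM in CIAKI, 13.4, 31.4 and 40.5 CPM with icariin and 2.82, 1.19 and 1.33 CPM in control rats (-2.15 ± 0.45 (SE), adjusted p = 0.0057 against CIAKI). It was above control by 3.32 ± 0.45 (SE), adjusted p = 0.019, a call lost without control rat 2 or 3 or icariin rat 2 or 3 (adjusted p up to 0.097).

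The peroxisomal enzymes Ehhadh and Acaa1a were called higher than in CIAKI and than in control rats. Ehhadh, the bifunctional enzyme of peroxisomes, measured 184, 395 and 292 CPM in CIAKI, 522, 697 and 654 CPM with icariin and 231, 273 and 206 CPM in control rats (1.16 ± 0.25 (SE), adjusted p = 0.0058 against CIAKI and 1.40 ± 0.25 (SE), adjusted p = 0.049 against control). Acaa1a, the peroxisomal thiolase, stood at 55.1, 77.2 and 72.96 CPM, 133, 146 and 171 CPM and 88.2, 80.05 and 84.2 CPM in the same order (1.13 ± 0.13 (SE), adjusted p = 0.00037 against CIAKI and 0.82 ± 0.13 (SE), adjusted p = 0.037 against control). Both calls against control were lost without any single control or icariin library, with an adjusted p up to 0.19 for Ehhadh and 0.15 for Acaa1a. Cyp4a1, an omega-hydroxylase and a classic target of PPAR alpha, measured 108, 162 and 149 CPM in CIAKI, 192, 217 and 230.4 CPM with icariin and 81.3, 64.6 and 68.7 CPM in control rats, with 1.56 ± 0.15 (SE), adjusted p = 0.0051 against control, a call that held in every alternative run. The receptor gene Ppara was higher than in CIAKI by 0.90 ± 0.19 (SE), adjusted p = 0.0055, and the fatty acid binding protein Fabp3 by 1.77 ± 0.28 (SE), adjusted p = 0.0014.

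**Figure D4:**
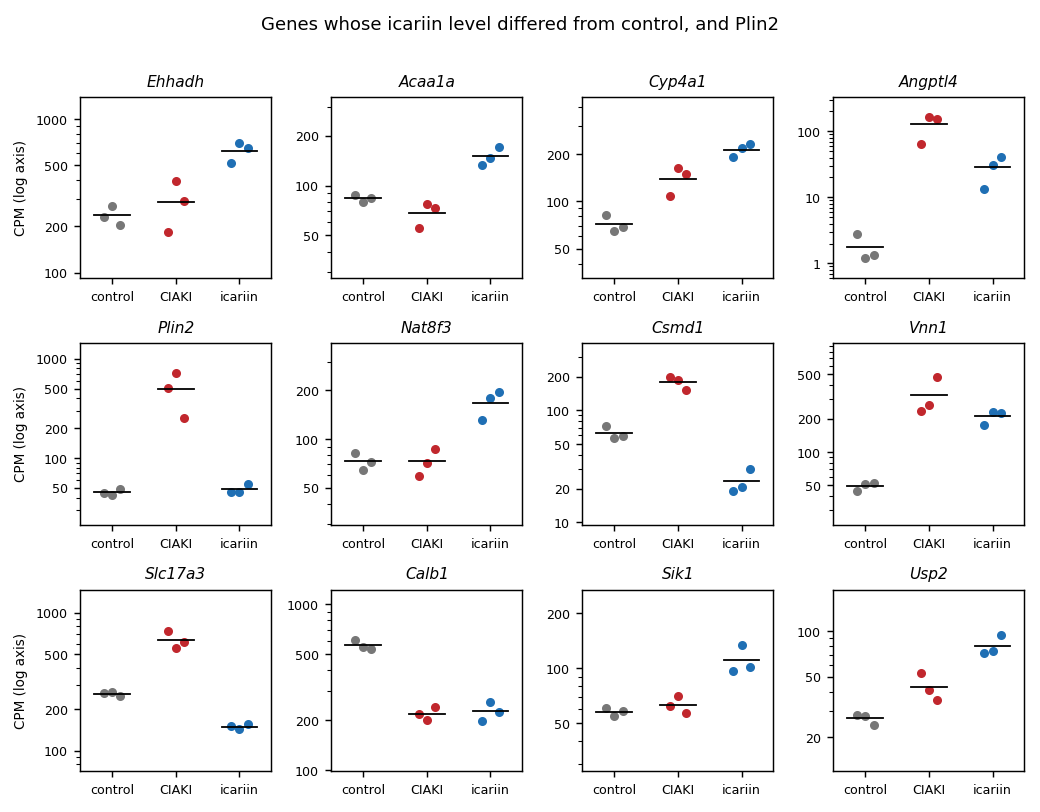
Level in CPM (y axis, log scale) of 12 genes in each of the 9 rats, by group (x axis); points are rats and black bars group means. The icariin rats lie above both other groups in Ehhadh, Acaa1a, Cyp4a1, Nat8f3, Sik1 and Usp2, below both in Csmd1 and Slc17a3, between them in Angptl4 and Vnn1, with control in Plin2 and with CIAKI in Calb1.

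Against both CIAKI and control, 26 features were called higher with icariin (0.155%) and 17 lower (0.102%). Both comparisons use the same 3 icariin libraries, so nothing is read from these counts and they only choose the genes described. Among the higher ones, Nat8f3, an N-acetyltransferase family member, measured 59.6, 71.6 and 87.4 CPM in CIAKI, 131, 179 and 194 CPM with icariin and 82.1, 64.3 and 72.2 CPM in control rats (1.19 ± 0.18 (SE), adjusted p = 0.001 against CIAKI). Usp2, a deubiquitinase that is known to cycle with the clock, stood at 52.7, 40.9 and 35.1 CPM, 72.1, 73.7 and 93.7 CPM and 28.2, 27.9 and 24.2 CPM in that order, and its difference from control was 1.54 ± 0.15 (SE), adjusted p = 0.0052. Sik1, a kinase of salt handling and cyclic AMP signalling, Slc25a42, a mitochondrial coenzyme A carrier, and Chrna2, a nicotinic receptor subunit, were above CIAKI by 0.80, 0.90 and 0.82 and above control by 0.91, 0.95 and 1.21.

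On the lower side, Slc17a3, an organic anion and phosphate carrier of the apical membrane, measured 738, 553 and 616 CPM in CIAKI, 152, 144 and 156 CPM with icariin and 264, 266 and 251 CPM in control rats (-2.06 ± 0.10 (SE), adjusted p = 1.1e-05 against CIAKI and -0.79 ± 0.10 (SE), adjusted p = 0.013 against control). Csmd1, a complement regulator, was at 198, 186 and 152 CPM, 19.1, 20.5 and 29.8 CPM and 71.7, 56.5 and 58.8 CPM (-1.41 ± 0.17 (SE), adjusted p = 0.012 against control). In both genes CIAKI lay above control and icariin below it. Polr3g, Dtx4, Tdrd5 and Creb3l1 had log2 differences from CIAKI of -0.81, -0.97, -0.67 and -0.66, and from control of -0.58, -0.998, -1.30 and -1.03. Of the 16 genes named by this rule, Usp2 kept its call against control without any single library, Csmd1 lost it without icariin rat 2 (adjusted p = 0.057), and the other 14 lost it without at least 2 different libraries in turn.

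A few list members were called against control in icariin rats and not against CIAKI. Calb1, the calcium buffer of the distal tubule, measured 612, 550.5 and 534 CPM in control rats, 216, 202 and 239 CPM in CIAKI and 198, 255 and 224 CPM with icariin (-1.32 ± 0.11 (SE), adjusted p = 0.0029 against control). Its difference from CIAKI was 0.04 (adjusted p = 0.79). Vnn1, a pantetheinase, was 44.5, 51.1 and 52.8 CPM in control rats, 235, 263 and 476 CPM in CIAKI and 175, 229.6 and 227 CPM with icariin (2.06 ± 0.24 (SE), adjusted p = 0.0084 against control). Every icariin rat lay below every CIAKI rat in Vnn1, at -0.56 (adjusted p = 0.087). Both calls against control held in every alternative run. The water channel Aqp2 and the serine enzyme Psph followed with 1.26 ± 0.20 (SE), adjusted p = 0.032 and -1.43 ± 0.22 (SE), adjusted p = 0.028 against control, and each lost that call in 8 of 20 alternatives, among them leaving out any one control library.

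Small RNAs were available as a table of 128 miRNAs that the authors had selected on these same rats, so its values are described without a test and its directions are not independent evidence. The table held 64 known rat miRNAs, 23 of them higher with icariin and 41 lower, and in 54 the groups did not overlap. Its deposited TPM values are read counts times a constant per library. The most abundant was miR-21-5p, a miRNA known for its rise in injured kidneys, with 120616, 94838 and 99572 TPM in CIAKI and 42388, 55156 and 54944 TPM with icariin (log2 ratio of group means plus 1 TPM of -1.05). Its passenger strand miR-21-3p went the same way at 11.6, 8.44 and 10.7 TPM against 1.67, 3.13 and 5.69 TPM. Of the known miRNAs 57 had a mature sequence in RefSeq (build GRCr8). The miRNAs that the text turns on are listed 5′ to 3′ with the seed, bases 2 to 8, in capitals.
rno-miR-21-5p: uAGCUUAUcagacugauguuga
rno-miR-21-3p: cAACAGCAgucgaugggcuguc
rno-miR-132-3p: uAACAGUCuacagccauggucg
rno-miR-212-3p: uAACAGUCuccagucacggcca
rno-miR-181b-5p: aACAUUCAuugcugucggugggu
rno-miR-181d-5p: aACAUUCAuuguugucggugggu
rno-miR-30a-3p: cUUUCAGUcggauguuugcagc
rno-miR-196b-5p: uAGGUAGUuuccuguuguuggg
rno-miR-451-5p: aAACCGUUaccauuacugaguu
rno-miR-144-5p: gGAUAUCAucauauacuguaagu
rno-miR-142-5p: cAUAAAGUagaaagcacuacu
rno-miR-155-5p: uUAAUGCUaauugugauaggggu

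A pair with the seed AACAGUC, miR-132-3p and miR-212-3p, was lower with icariin. For miR-132-3p the values were 37.3, 34.98 and 44.3 TPM in CIAKI and 13.7, 13.9 and 13.4 TPM with icariin, and for miR-212-3p they were 2.68, 2.81 and 4.19 and 0.714, 1.27 and 0.509 TPM. The 2 hairpins lie close together on chromosome 10. The seed ACAUUCA joined miR-181d-5p, at 437, 541 and 391 TPM against 260.1, 208 and 195 TPM, and miR-181b-5p, at 399, 397 and 376 TPM against 239, 241 and 257 TPM. The last shared seed, AGCCCUU, belonged to miR-129-1-3p and miR-129-2-3p, whose deposited values were identical in all 6 libraries.

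Kidney-enriched miR-30a-3p stood at 2916, 2199 and 2937 TPM in CIAKI and 1321, 1087 and 1144 TPM with icariin, and miR-196b-5p at 768, 830.5 and 658 TPM against 316, 368 and 357 TPM. Neither overlapped between the groups. The inflammatory miR-155-5p was lower at 59.2, 81.7 and 61.4 TPM against 107, 153 and 95.8 TPM, and miR-146b-5p measured 627, 2399 and 733 TPM against 477, 578 and 544 TPM, with CIAKI rat 2 highest as it was in Cxcl10. Among those higher with icariin, miR-142-5p, a miRNA of blood cells, stood at 280.1, 249 and 225 TPM against 196, 96.8 and 158 TPM, and miR-27b-3p at 31843, 22409 and 25516 TPM against 20716, 11811 and 24191 TPM, where the groups overlapped.

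The red cell miRNAs miR-451-5p and miR-144-5p were lower with icariin, at 24.3, 269 and 206 TPM against 475, 534 and 396 TPM and at 3.93, 39.4 and 33.8 TPM against 65.5, 78.04 and 59.8 TPM. Icariin rat 1 was the lowest in both, as it was in Hbb. Summed erythroid markers ran from 2249 to 2788 CPM in CIAKI, 412 to 1595 CPM with icariin and 398 to 1585 CPM in control rats. The part of blood left in the kidneys in these miRNAs was not tested. The lowest ratios among miRNAs belonged to miR-205 and miR-135b-5p, at -2.63 and -1.85, where the groups overlapped: miR-205 stood at 14.9, 70.3 and 176 TPM in CIAKI and 18.1, 7.99 and 13.7 TPM with icariin. Among miRNAs whose groups did not overlap, miR-335 and miR-598-3p were with miR-451-5p and miR-132-3p the 4 with the largest decrease, at ratios of -1.53 and -1.45. The 4 with the largest increase and no overlap were predicted miRNAs without a deposited name, at ratios of 1.55 to 2.02, and in each the value of icariin rat 1 was the highest.

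**Figure D5:**
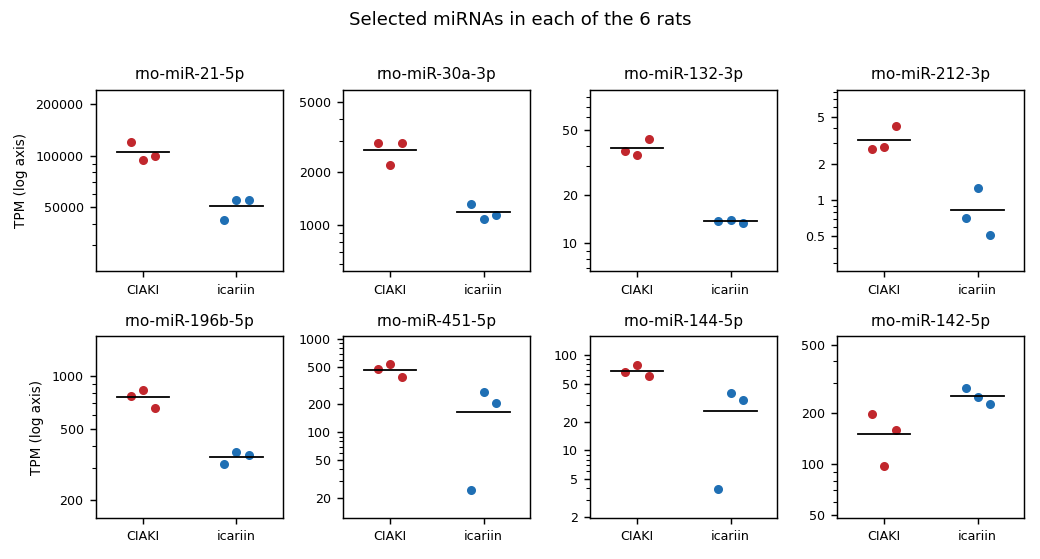
Deposited TPM (y axis, log scale) of 8 miRNAs in each of the 6 CIAKI and icariin rats, by group (x axis); points are rats and black bars group means. The groups do not overlap in any of the 8, and icariin rat 1, the leftmost point, lies far below the other icariin rats in miR-451-5p and miR-144-5p.

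Long noncoding transcripts came as a table of 989 that the authors had selected, 694 higher with icariin and 295 lower, of which 46 had an Ensembl name. In 893 the groups did not overlap, a count that the selection shapes. AC134224.3-201 had 6, 13 and 13 reads in CIAKI and 2831, 6429 and 2152 reads with icariin, and AC134224.1-201 had 34597, 29420 and 39789 reads in CIAKI and 147, 7017 and 458 reads with icariin. Icariin rat 2 was highest in both, so in it the second transcript was not as low as in the other icariin rats. AABR07030527.1-201 was lower at 1.20, 0.644 and 1.14 FPKM against 19.4, 11.5 and 6.26 FPKM.

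Circular RNAs were 16 in the selected table, 6 higher and 10 lower, and in 5 the groups did not overlap. Each of the 16 had 0 reads in all 3 rats of one of the groups, and 11 of them also had 0 reads in at least 1 rat of the other. The one with the most reads among the 5 lay on chromosome 1 from 278580846 to 278594581 (genome build unstated in the sources used here), with 59, 36 and 58 reads in CIAKI and 0, 0 and 0 reads with icariin. Another circle starting at the same base and ending at 278749829 had 0, 0 and 0 reads in CIAKI and 0, 57 and 56 reads with icariin, and one ending at 278620822 was again listed in CIAKI, with 47, 39 and 0 reads, and not with icariin, at 0, 0 and 0 reads. No test was made on this table.

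Of assembled features without an Ensembl gene 24.6% were called, 626 higher with icariin and 182 lower, at a median level of 2.63 CPM. Of Ensembl genes 43.0% were called, 2593 higher and 3191 lower, at a median level of 23.5 CPM. The difference between these shares was not tested.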

How the data were processed

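Whole-kidney RNA of 9 rats was sequenced after Illumina TruSeq library preparation, per the labels' protocols. The submitters' processing notes name Bowtie 0.12.2 and the build mm8, a mouse assembly, although the deposited identifiers are rat Ensembl ones. How strands, near-identical copies or overlapping genes were handled was, in the sources used here, not given. The authors deposited gene values as CPM. Multiplied back, 100% of the values gave whole reads (within 0.1), and all 23850 compared values equalled the count in the authors' deposited mRNA table. FPKM values and read counts of lncRNAs and mRNAs, and TPM values and counts of miRNAs and circRNAs, were deposited by the authors only for features they had selected on these samples, and these were described without a test.

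Features reaching 1 CPM in 3 or more libraries were tested on log2(CPM + 1) with limma 3.58.1 (R 4.3.3, intensity trend, all 9 libraries, no replicate block) at an adjusted p below 0.05. The count tests in edgeR 4.0.16 (quasi-likelihood) and DESeq2 1.42.0 ran on the recovered reads as alternatives, beside other pseudocounts, filters and scalings and leaving out each library. The script was tested on simulated data. Each library came from 1 rat, per the series design, so p-values rest on the spread between rats.

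The members and the 35 gene lists were chosen with earlier results of these data known. Of 730 list entries 691 were found in the table. Genes were named by rule: the 12 largest called differences a direction among named Ensembl genes with a higher group mean of at least 10 CPM and no overlap, the 4 smallest p-values of each list with called members against its majority, up to 8 genes a direction called the same way against both groups with at least 5 CPM, 6 set genes (Havcr1, Lcn2, Esr1, Pde5a, Nos3 and Hnf4a), and the 4 largest ratios a direction of each noncoding table with at least 10 reads and no overlap. All other genes and noncoding RNAs were named after their values were seen. Some genes that the rule names are not reported here.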

Additional observations from a re-analysis of the deposited data

How the results depend on the processing

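Icariin against CIAKI gave 3219 higher and 3373 lower calls. Each alternative listed in the methods stayed within 1.5 times of both counts, from 2284 higher without icariin rat 2 to 3911 with upper-quartile scaling, and from 2627 lower without icariin rat 3 to 3870 with DESeq2. edgeR shared 6367 and DESeq2 6527 of the 6592 calls, all in the same direction. Of 283 called named genes 258 kept their call in every alternative.

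The comparison of icariin with control was less stable. Its 105 calls became 524 with DESeq2, 76 with edgeR and 52 with no filter, and leaving out 1 library gave 31 (without control rat 2 or 3, or icariin rat 2) to 127 (without CIAKI rat 1). The cause was not tested.

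One named list member, the lipid droplet gene Plin1, changed sign. It was not called at 0.05, and stood at -0.0028 with a pseudocount of 3, -0.0573 with quantile normalization, -0.0639 with edgeR and -0.0851 with DESeq2. Leaving out 1 library gave -0.31 (without icariin rat 3) to 0.57 (without CIAKI rat 3).

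Rats share replicate numbers across groups, but nothing in the labels pairs them. Same-numbered CIAKI and icariin rats had correlated deviations of 0.0169, 0.0688 and 0.0813, none over 0.1. CIAKI rats 2 and 3 correlated best with the icariin rat of the same number, and CIAKI rat 1 with icariin rat 3 (0.0222). With the number as a block, 3088 features were higher and 3226 lower than in CIAKI, and 73 differed from control. Features under 2 CPM were called in 24.7% of cases, and the part of depth in this was not tested.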
